A study of Mus musculus with 6 samples.

Results

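The genes described here encode secreted proteins with which the intestinal epithelium controls the bacteria at its surface. They are the lysozyme *Lyz1*, the angiogenin *Ang4*, the intelectin *Itln1*, the secreted phospholipase *Pla2g2a*, the *Reg* genes *Reg1*, *Reg3a*, *Reg3b*, *Reg3g* and *Reg4*, and *Nupr1*. The exception is *Nupr1*, which encodes a small stress-induced nuclear protein that is not secreted. *Pla2g2a* is known to be disrupted in C57BL/6 mice (below). The 10 genes were chosen by name, and each was found by its Ensembl identifier in the deposited table of 34866 genes. RNA was sequenced from adenomas excised from intestines of C57BL/6J mice aged between 100 and 120 days, with 3 libraries from *ApcMin*/+ and 3 from *Apc1322T*/+ mice. The Apc protein made from *ApcMin* is too short to bind β-catenin, whereas the truncation left by *Apc1322T* is longer and retains part of this binding. All 6 libraries carry a mutant *Apc* allele and none is normal mucosa, so that the single comparison the design allows is between adenomas of the 2 genotypes. Counts per gene hold no allele, and the genotypes were taken from the labels. The labels do not say how many adenomas or mice stand behind a library. The study's methods state that several RNA extractions of a single mouse were typically pooled into a sample, without naming these libraries. The p-values measure the spread between these libraries.

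Paneth cells sit at the base of the crypts of the small intestine and release granules of lysozyme, defensins, phospholipase and angiogenin into the crypt. Reg3 proteins are C-type lectins. Reg3γ binds the peptidoglycan of Gram-positive bacteria, and the *Reg3b* and *Reg3g* genes of enterocytes and Paneth cells are induced by microbial signals and by interleukin-22, a cytokine that acts through STAT3. *Reg* genes are also expressed by the acinar cells of the pancreas.

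*Reg1*, *Reg3a*, *Reg3b* and *Reg3g* lie in a cluster with *Reg2* and *Reg3d* on chromosome 6 of GRCm38, within 98.2 kb, and the table holds 0 other genes there. *Reg3b* (ENSMUSG00000071356) opens the cluster on the plus strand at chr6:78370657-78373466. It is followed by *Reg3a* (ENSMUSG00000079516, plus strand) at chr6:78380709-78383827 and *Reg1* (ENSMUSG00000059654, plus strand) at chr6:78422711-78428667. *Reg3g* (ENSMUSG00000030017) closes it on the minus strand at chr6:78466269-78468872. The 150 bases before the RefSeq start sites of the *Reg* genes with the highest RNA levels are shown. These genes were all lowest in the same library, *ApcMin* replicate 2 (below). They were taken from RefSeq on GRCm38.p6 and read 5′ to 3′ on the strand of the gene. Capitals mark a TATA box (TATAAA), a STAT motif (TTCNNNGAA) or a TCF/LEF motif (CTTTGAT or CTTTGAA), searched on both strands. The end of the *Reg3b* window lies in an annotated exon of the gene in GENCODE M21 (chr6:78370861-78370910) and that of the *Reg1* window in an exon of *Reg1* (chr6:78425930-78426007), so that both windows are partly annotated as transcribed.
Reg3b, chr6:78370735-78370884, plus strand: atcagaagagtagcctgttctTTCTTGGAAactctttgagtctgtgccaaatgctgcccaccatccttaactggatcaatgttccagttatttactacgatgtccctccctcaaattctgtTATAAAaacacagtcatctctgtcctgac
Reg3g, chr6:78468875-78469024, minus strand: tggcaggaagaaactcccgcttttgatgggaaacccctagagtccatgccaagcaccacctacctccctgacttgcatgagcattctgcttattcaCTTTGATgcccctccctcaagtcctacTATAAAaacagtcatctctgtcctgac
Reg1, chr6:78425833-78425982, plus strand: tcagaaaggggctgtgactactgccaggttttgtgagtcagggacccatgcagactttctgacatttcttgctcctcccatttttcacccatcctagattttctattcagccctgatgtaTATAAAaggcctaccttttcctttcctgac

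The windows of *Reg3b* and *Reg3g* were identical at 104 of 152 aligned positions (68.4%), and those of *Reg3b* and *Reg1* at 84 of 162 (51.9%). Within these 150 bases all 3 held a TATA box between 27 and 30 bases before the start site, a motif found in 13.6% of the 32851 promoters of the RefSeq table (250 bases before to 50 after the start). The STAT motif was found in the *Reg3b* window 129 bases before the start site and in 8.3% of all promoters. The TCF/LEF motif was found in the *Reg3g* window 54 bases before the start site and in 8.65% of all promoters. The motifs did not overlap. Such matches describe the letters of these windows and not the binding of a factor.

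The depth was between 23132461 and 33518324 estimated counts per library. CPM are the counts of a gene relative to the TMM-normalised size of its library, and 3 counts came to between 0.0838 and 0.143 CPM. This value describes depth only, and the standard errors below also take in the spread between libraries. All 10 genes passed edgeR's filter on low counts, which kept 16536 genes. Log2 CPM values have a prior count of 2. Log2 fold changes are *ApcMin* minus *Apc1322T* and are written ± their standard error, with p-values from edgeR's quasi-likelihood test. The 8 markers of intestinal epithelium were present in every library, from *Krt8* with the highest level (3592 to 5272 CPM) to *Cdx1* with the lowest (37.7 to 67.9 CPM). The library of *ApcMin* replicate 1 stood apart in genes of other cell types. The pancreatic protease gene *Ctrb1* had 74.8 CPM there against 0.0632 to 0.629 CPM in the other 5 libraries. The summed level of the macrophage list was 507 CPM there against 148 to 234, and that of the neutrophil list 179 CPM against 25.0 to 80.8. In the plot of marker lists, the pancreatic list shown leaves out *Cela1* and *Pnliprp1*, which had at least 72.3 and 24.0 CPM in every library. The remaining 10 genes, a list trimmed after their values were seen, summed to 210 CPM in *ApcMin* replicate 1 and to at most 1.75 CPM elsewhere. Genotypes also differed in genes of squamous epithelium, which summed to 6.42 to 8.71 CPM in *Apc1322T* and 34.4 to 47.6 CPM in *ApcMin* libraries. Their part in the values below was not tested.

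**Figure D1:**
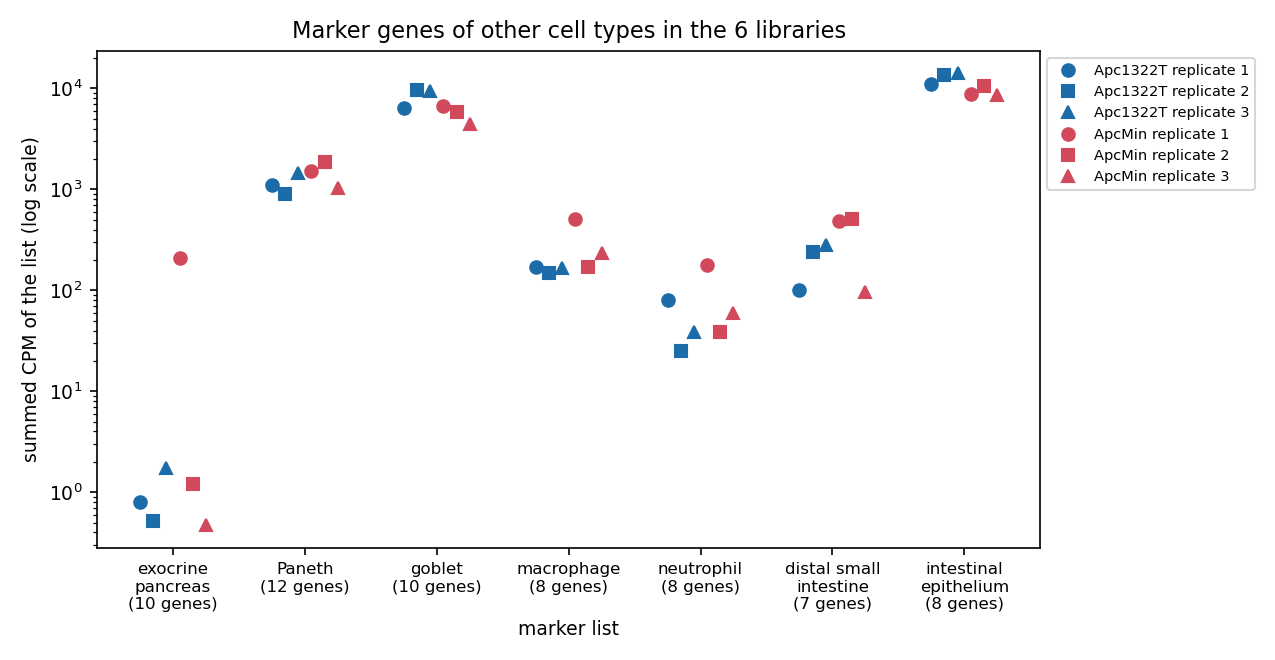
Summed CPM (vertical log axis) of marker genes of 7 cell types or regions in each of the 6 libraries, with colour for the genotype and symbol for the replicate. *ApcMin* replicate 1 lies above the other libraries for the pancreatic (210 CPM), macrophage (507 CPM) and neutrophil (179 CPM) lists.

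Compared per kilobase of the longest coding transcript, *Reg3b* was the most abundant of the 10 RNAs, with a median of 1924 CPM per kb over the 6 libraries. It was followed by *Reg3g* (1231), *Lyz1* (864), *Reg1* (586), *Pla2g2a* (381), *Reg4* (330), *Itln1* (321), *Ang4* (88.0), *Nupr1* (44.0) and *Reg3a* (14.4 CPM per kb). Neighbours in this order lay the same way in 6 of 6 libraries for *Reg3b* over *Reg3g* and for *Itln1* over *Ang4*. They did so in 5 of 6 for *Lyz1* over *Reg1* and for *Nupr1* over *Reg3a*, and in 4 of 6 for the other 5 pairs, whose order therefore does not hold beyond the spread of the libraries. Together the 10 genes took between 0.323% and 0.631% of the estimated counts of a library. The *ApcMin* replicate 2 library had the lowest share, and in it *Reg3b* and *Reg3g* took 0.0556% of the counts against 0.216% to 0.363% in the other 5.

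**Figure D2:**
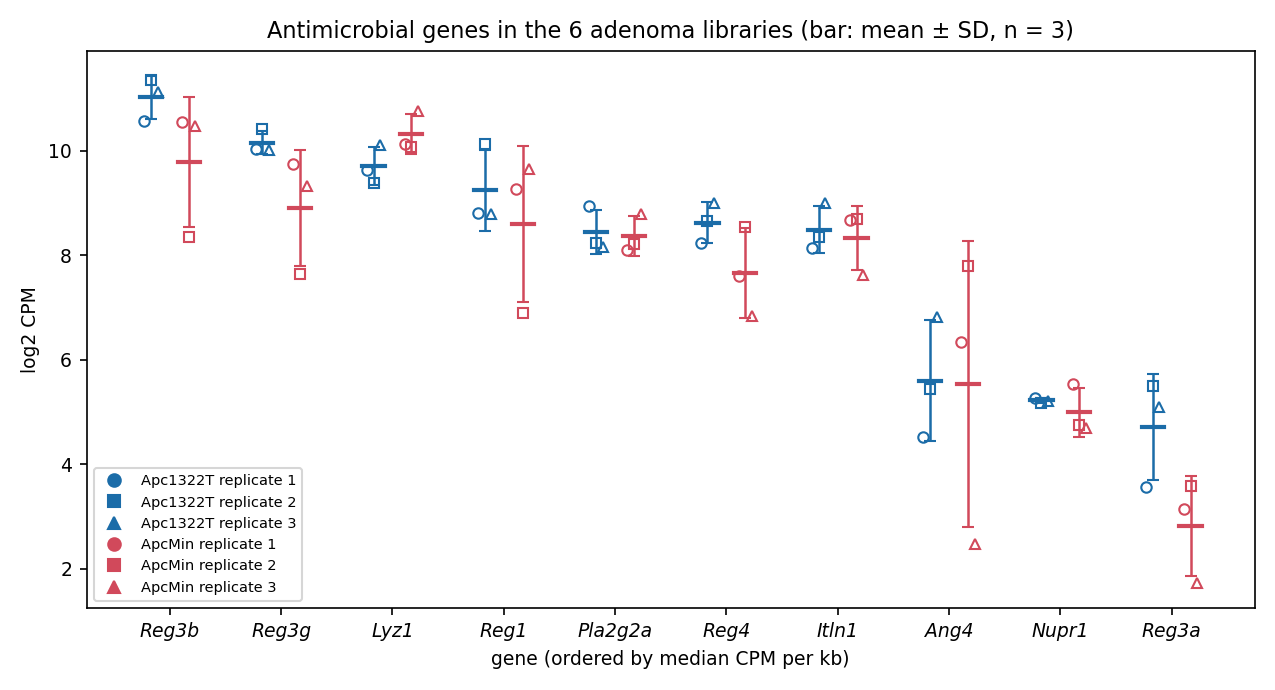
Log2 CPM (vertical axis) of the 10 genes in the 3 *Apc1322T* (blue) and 3 *ApcMin* (red) libraries, with symbols for replicates and bars for the mean ± SD (n = 3). *Reg3b*, *Reg3g* and *Reg1* are low in *ApcMin* replicate 2 (8.36, 7.65 and 6.89), and *Ang4* has the widest spread (2.48 to 7.79).

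The genotypes were compared to ask whether adenomas with an *ApcMin* or an *Apc1322T* truncation differed in these genes. No member reached an adjusted p below 0.01 in edgeR's test, and neither did any of the 16536 tested genes (0%). At an adjusted p below 0.05 in edgeR's test there were 0 of 10 members and 0.00605% of all tested genes. With DESeq2, the tool the study used for these libraries, there were 0 of 10 and 1.11% at 0.01. The lowest adjusted p of a member in DESeq2's Wald test was 0.0163 (*Reg3a*), which is below 0.05. At an unadjusted p under 0.05 in edgeR's test there were 2 of the 10, where 15.1% of all tested genes were. Of these 1 was lower in *ApcMin* adenomas (*Reg3a*; 7.6% of all) and 1 higher (*Lyz1*; 7.49% of all). This count depended on single libraries and on the tool. It was 0 without *Apc1322T* replicate 2 (6.92% of all tested genes) and 1 without *Apc1322T* replicate 1 (24.4%), *Apc1322T* replicate 3 (8.63%) or *ApcMin* replicate 3 (9.87%). It was 2 without *ApcMin* replicate 1 (*Reg3g* and *Nupr1*; 11.8%) and 4 without *ApcMin* replicate 2 (*Reg3a*, *Reg3g*, *Reg4* and *Lyz1*; 12.6%). With DESeq2 it was 5 (*Reg3a*, *Reg3b*, *Reg3g*, *Reg4* and *Lyz1*; 11.5%). The 3 *ApcMin* libraries lay below the 3 *Apc1322T* libraries for 2 of the 10 genes (*Reg3b* and *Reg3g*, against 9.96% of all tested genes), and above them for 0 (11% of all). Without regard to direction this made 2 of 10 beside 21% of all. Irrespective of any test, 2 of the 10 had a log2 fold change above 0, as had 52.4% of all tested genes, and 8 had one below 0. The median was -0.28 beside 0.017 over all tested genes. When single libraries were dropped, 7 or 8 members lay below 0. In the same comparison all 8 epithelial markers had log2 fold changes below 0 (median -0.44), 6 of them at an unadjusted p under 0.05 (7.6% of all). Their sum was 11010 to 14120 CPM in *Apc1322T* and 8636 to 10600 CPM in *ApcMin* libraries. All 8 macrophage markers had values above 0 (median 0.74), 6 of them at an unadjusted p under 0.05 (7.49% of all). All 8 were highest in *ApcMin* replicate 1. Their sum was 148 to 170.8 CPM in *Apc1322T* libraries and 507, 170.9 and 234 CPM in *ApcMin* replicates 1, 2 and 3. The part of these markers in the values of the antimicrobial genes was not tested. In tissue RNA, fewer cells of a type and less RNA per cell cannot be told apart.

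**Figure D3:**
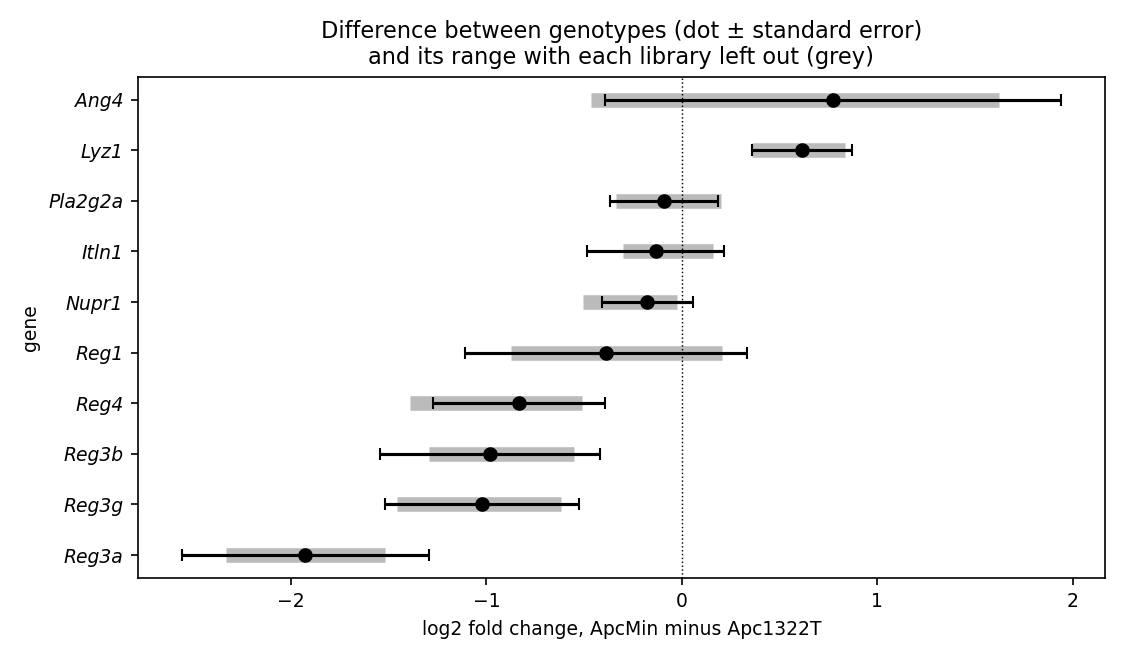
Log2 fold change of the 10 genes (horizontal axis, *ApcMin* minus *Apc1322T*, dots) with its standard error (black bars) and its range with each of the 6 libraries left out (grey). *Reg3a*, *Reg3b*, *Reg3g* and *Reg4* stay below 0 and *Lyz1* above 0 in each of these fits, and *Ang4*, *Itln1*, *Pla2g2a* and *Reg1* cross 0.

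*Reg3b* and *Reg3g*, the bactericidal lectins of the villus and crypt epithelium, were both lower in 1 library than in each of the other 5. *Reg3b* had 1517, 2632 and 2249 CPM in *Apc1322T* replicates 1, 2 and 3 and 1496, 328 and 1416 CPM in *ApcMin* replicates 1, 2 and 3. *Reg3g* had 1048, 1362 and 1040 CPM in the *Apc1322T* libraries and 859, 200.4 and 638 CPM in the *ApcMin* libraries. Both were lowest in *ApcMin* replicate 2, and in both the highest *ApcMin* library was below the lowest *Apc1322T* library. For *Reg3b* this gap was narrow, with 1496 against 1517 CPM. On the log2 scale *Reg3b* differed by -0.98 ± 0.56 (adjusted p = 0.428, edgeR) and *Reg3g* by -1.02 ± 0.50 (adjusted p = 0.375, edgeR). With *ApcMin* replicate 2 left out these differences were -0.55 ± 0.25 (adjusted p = 0.413, edgeR) and -0.62 ± 0.21 (adjusted p = 0.382, edgeR).

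The ratio of *Reg3b* to *Reg3g* counts stayed between 1.45 and 2.22 in all 6 libraries. *Reg3b* itself varied 8.02-fold and *Reg3g* 6.80-fold between the lowest and the highest library, and *ApcMin* replicate 2 was the lowest for both. Without that library *Reg3b* spanned 1416 to 2632 CPM and *Reg3g* 638 to 1362 CPM, so that the wide ranges rest on it. The comparison of patterns that follows includes this library. When each gene was centred on its mean and compared by the root mean square difference of log2 CPM over the 6 libraries, *Reg3g* was the nearest to *Reg3b* of all tested genes, and *Reg3b* the nearest to *Reg3g*, at 0.22. The next nearest to *Reg3b* were *Lrrc46* (0.31) and *Pde6g* (0.37), and to *Reg3g* *Gm15198* (0.24) and *Lrrc46* (0.285). No 50-base stretch of the *Reg3b* or *Reg3g* transcript was found in a transcript of another gene, and reads of the 2 genes could thus be told apart.

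*Reg1*, another gene of the cluster, which encodes the lithostathine known from the pancreas, shared the low value. It had 447, 1126 and 440.4 CPM in the *Apc1322T* libraries and 613, 118 and 806 CPM in the *ApcMin* libraries, so that the genotypes overlapped. *ApcMin* replicate 2 was lower than the median of the other 5 libraries by 4.62-fold for *Reg3b*, 5.19-fold for *Reg3g* and 5.18-fold for *Reg1*. It was the lowest library by over 1 on the log2 scale for these 3 of the 10 genes, and for 67 (0.405%) of all tested genes. Some genes of the lists used here for regions of the small intestine were also at an extreme in *ApcMin* replicate 2. Of 8 genes of the proximal list 4 were lowest there, among them *Cybrd1* (106 CPM against 143 to 1654) and *Slc40a1* (71.9 CPM against 104 to 540). *Hopx* (65.6 CPM against at least 67.1) and *Onecut2* (152 CPM against at least 166) were lowest by small margins. *Fabp1* (775 CPM) and *Apoa4* (8138 CPM) of that list were higher in *ApcMin* replicate 2 than in both other *ApcMin* libraries. The sum of the proximal list was 9485 CPM there, above the 4249 and 8162 CPM of the other *ApcMin* libraries and below the 10750 to 14770 CPM of the *Apc1322T* libraries, and the sum of the distal list was the highest of the 6, with 509 CPM. The part of intestinal region in the *Reg3b*, *Reg3g* and *Reg1* values was not tested. The root mean square difference between *Reg1* and *Reg3b* was 0.48, and the ratio of *Reg3b* to *Reg1* counts was between 1.76 and 5.11. Among all tested genes *Pigz* was nearest to *Reg1* (0.13), followed by *Sult6b2* (0.23) and *Pik3c2g* (0.30). *Reg1* differed by -0.39 ± 0.72 (log2, adjusted p = 0.810, edgeR), and the sign turned to 0.079 without *ApcMin* replicate 2 and to 0.20 without *Apc1322T* replicate 2. In *ApcMin* replicate 1, the library with pancreatic transcripts, *Reg1* was within the range of the other libraries. Without that library the log2 difference was -0.54. Of its 50-base stretches 3.74% were shared with other genes.

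*Reg3a*, a further lectin gene of the cluster, had the lowest level of the 10 and the log2 fold change farthest from 0. It had 11.8, 45.0 and 33.97 CPM in the *Apc1322T* libraries and 8.71, 11.9 and 3.26 CPM in the *ApcMin* libraries. *ApcMin* replicate 2 exceeded *Apc1322T* replicate 1 by a small margin, and the other *ApcMin* libraries lay below all 3. Counts were between 103 and 946. This was a log2 difference of -1.93 ± 0.63, with an unadjusted p of 0.0216 and an adjusted p of 0.288 in edgeR's test. DESeq2's Wald test gave -1.94 with an adjusted p of 0.0163, which is also above the threshold of 0.01. Dropping single libraries gave log2 differences between -2.33 and -1.52, and the unadjusted p was above 0.05 without *Apc1322T* replicate 2 (0.0720), *Apc1322T* replicate 3 (0.0501) or *ApcMin* replicate 1 (0.0553). Unlike *Reg3b*, *Reg3g* and *Reg1*, *Reg3a* was lowest in *ApcMin* replicate 3, and its nearest genes were the interferon-induced *Ifit1* (root mean square difference 0.26) and *Ifit1bl1* (0.33), followed by *Gimd1* (0.35).

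Of the remaining genes of the cluster, *Reg2* had 12.7 CPM in *ApcMin* replicate 1 and 0.219 to 1.04 CPM in the other 5 libraries. This was the library with pancreatic transcripts, and *Reg2* is a gene of the exocrine pancreas. Its part in the *Reg2* value was not tested. *Reg3d* had between 0.0393 and 0.810 CPM and was not tested for low counts.

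*Reg4* lies apart from the cluster, on the plus strand of chromosome 3 (ENSMUSG00000027876, chr3:98222156-98236748), and marks enteroendocrine cells and deep secretory cells of the crypt. It had 300.5, 402 and 512 CPM in the *Apc1322T* libraries and 195, 373 and 114 CPM in the *ApcMin* libraries. *ApcMin* replicates 1 and 3 were below all 3 *Apc1322T* libraries and replicate 2 was among them. *Reg4* differed by -0.83 ± 0.44 (log2, adjusted p = 0.405, edgeR). Without *ApcMin* replicate 2 it differed by -1.39 ± 0.33 (unadjusted p = 0.00671, adjusted p = 0.382, edgeR), and without *ApcMin* replicate 3 by -0.51. The genes nearest to *Reg4* were *Apoa1* (0.15), *Styxl1* (0.16) and *Cldn18* (0.19). Of the goblet cell list, 9 of 10 genes also lay below 0 (median -0.52), 4 of them at an unadjusted p under 0.05 (edgeR), beside 7.6% of all tested genes. The sum of the list was 6461 to 9745 CPM in *Apc1322T* and 4406 to 6646 CPM in *ApcMin* libraries. The defining goblet genes were high in all libraries, with *Muc2* at 567 to 1655 CPM and *Fcgbp* at 1502 to 3286 CPM. The part of goblet cells in the *Reg4* value was not tested.

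**Figure D4:**
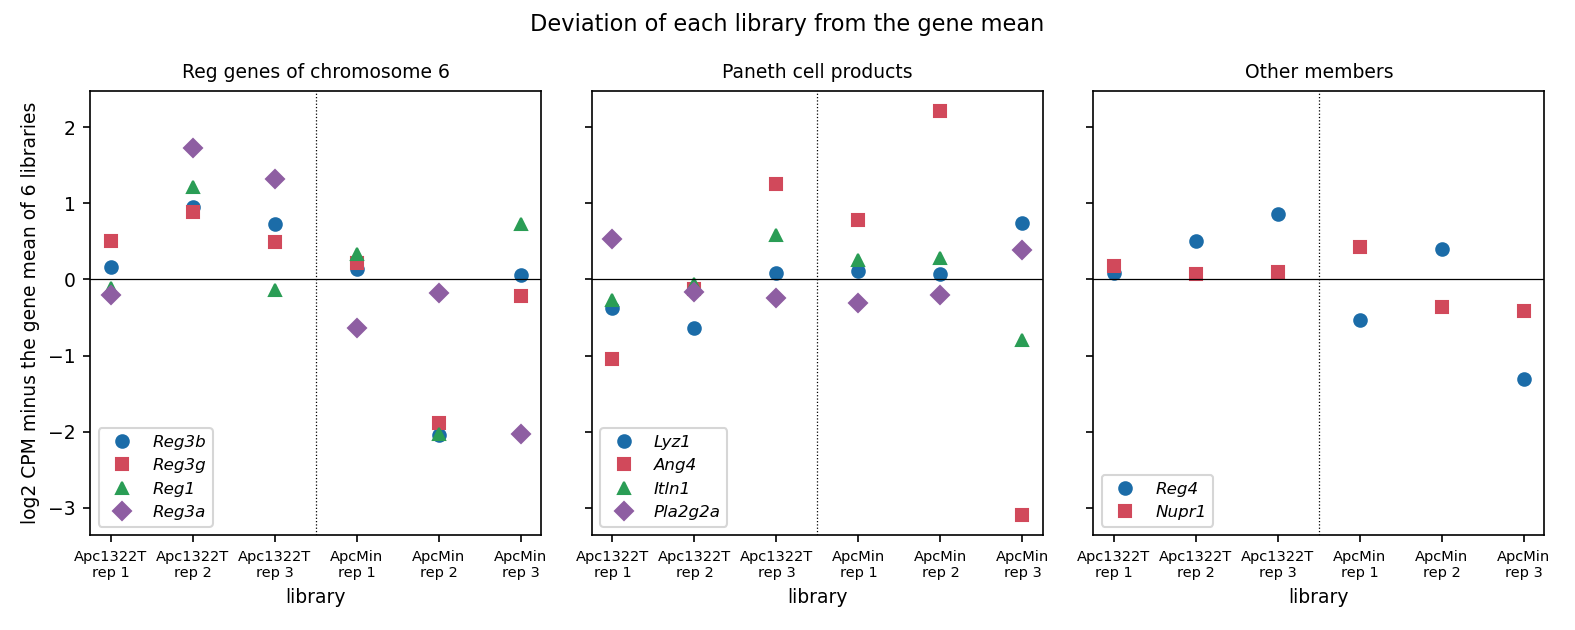
Log2 CPM of each gene minus its mean over the 6 libraries (vertical axis) for each library (horizontal axis, *Apc1322T* left and *ApcMin* right of the dotted line). *Reg3b*, *Reg3g* and *Reg1* are low together in *ApcMin* replicate 2, where *Ang4* is highest (7.79 log2 CPM), and *Reg3a*, *Reg4*, *Ang4*, *Itln1* and *Nupr1* are lowest in *ApcMin* replicate 3.

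*Lyz1* encodes the lysozyme of Paneth cells, an enzyme that cuts bacterial peptidoglycan. It lies on the minus strand of chromosome 10 (ENSMUSG00000069515, chr10:117287797-117292868), 5475 bases from *Lyz2* (ENSMUSG00000069516), the lysozyme gene of macrophages. The 2 genes are close copies, and the 150 bases before their start sites are shown with capitals for the bases that do not match between them (134 of 151 aligned positions were identical, 88.7%; RefSeq, GRCm38.p6). Part of the *Lyz2* window lies in an annotated exon of *Lyz2* (chr10:117282107-117282321).
Lyz1, chr10:117292869-117293018, minus strand: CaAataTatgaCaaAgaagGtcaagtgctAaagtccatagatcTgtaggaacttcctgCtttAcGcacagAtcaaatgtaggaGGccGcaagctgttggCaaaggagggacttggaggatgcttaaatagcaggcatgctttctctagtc
Lyz2, chr10:117282273-117282422, minus strand: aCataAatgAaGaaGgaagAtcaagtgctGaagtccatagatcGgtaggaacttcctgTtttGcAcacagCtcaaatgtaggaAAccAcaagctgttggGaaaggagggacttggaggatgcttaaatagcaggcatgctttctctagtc

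The *Lyz1* and *Lyz2* transcripts were identical at 92.0% of aligned positions, and 195 of the 1214 stretches of 50 bases in *Lyz1* (16.1%) also occurred in *Lyz2*. Reads from these stretches were divided by Salmon's estimate, which leaves some uncertainty in both counts. *Lyz1* had 798, 665 and 1100.5 CPM in *Apc1322T* and 1115, 1082 and 1726 CPM in *ApcMin* adenomas. *ApcMin* replicates 1 and 3 lay above all *Apc1322T* libraries, and *ApcMin* replicate 2 just below *Apc1322T* replicate 3. This was a log2 difference of 0.61 ± 0.26, or 1.53-fold, with an unadjusted p of 0.0499 and an adjusted p of 0.331 in edgeR's test. It lay between 0.36 and 0.83 when single libraries were dropped. *Lyz2* had 48.5 to 68.0 CPM in 5 libraries and 260.2 CPM in *ApcMin* replicate 1, where the 7 other genes of the macrophage list also summed highest (246.5 CPM against 91.2 to 166). *Lyz2* is itself on that list and made up 260.2 of its 507 CPM there. *Lyz1* made up 81.1% of the counts of both genes in that library and between 92.1% and 96.2% in the others. With the counts of both genes summed the log2 difference was 0.66 ± 0.24 (adjusted p = 0.307, edgeR), and without *ApcMin* replicate 1 that of *Lyz1* was 0.72. The genes nearest to *Lyz1* in pattern were *Ptpdc1* (0.094), *Sbsn* (0.11) and *4933430I17Rik* (0.12).

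Other genes of Paneth cells were set beside *Lyz1*. Of 12 Paneth cell genes that are not members, all were tested, and 10 had a log2 fold change above 0 and 2 below (median 0.46). At an unadjusted p under 0.05 there were 2 higher, *Defa21* (1.90 ± 0.58) and *Mptx2* (0.96 ± 0.34), and 1 lower, *Habp2* (-0.87 ± 0.21). Of all tested genes 7.49% were higher and 7.6% lower at that level (edgeR). *Defa21* encodes an α-defensin, and its reads can be shared with other α-defensin genes of near-identical sequence. The matrix protease gene *Mmp7*, whose product activates α-defensins, had a log2 fold change of 0.22 ± 0.20. The summed level of the 12 genes was 910 to 1464 CPM in *Apc1322T* and 1034 to 1849 CPM in *ApcMin* libraries. *ApcMin* replicate 3 had the highest *Lyz1* of the 6 libraries and the lowest Paneth sum of its genotype. The ratio of *Lyz1* to *Defa24* counts was 7.35 in that library and between 1.95 and 4.01 in the others.

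*Ang4* encodes a secreted ribonuclease with bactericidal activity that is made by Paneth and goblet cells (ENSMUSG00000060615, minus strand, chr14:51763878-51773590). It varied most of the 10 genes between libraries, by 40.1-fold. It had 23.04, 43.4 and 113 CPM in *Apc1322T* and 81.4, 221 and 5.50 CPM in *ApcMin* adenomas, so that the highest and the lowest library both came from *ApcMin* mice. The log2 difference of 0.77 was smaller than its standard error of 1.17 (adjusted p = 0.764, edgeR), and it was -0.46 without *ApcMin* replicate 2 and 1.62 without *Apc1322T* replicate 3. The nearest genes in pattern were *Guca2a*, which encodes guanylin (root mean square difference 0.38), the carbonic anhydrase gene *Car4* (0.40) and *Osr2* (0.53). The 2 libraries with the lowest *Ang4*, *ApcMin* replicate 3 and *Apc1322T* replicate 1, also had the lowest summed levels of the list for the distal small intestine, with 96.4 and 100.2 CPM, and the library with the highest *Ang4* had the highest sum, with 509 CPM. For *Mep1a*, a brush border protease of that list, the values were 5.94, 9.43 and 122 CPM in the same libraries. Not every gene of the list had this order, since *Nr1h4* was highest in *ApcMin* replicate 3 (24.8 CPM) and *Fabp6* in *ApcMin* replicate 1 (127 CPM). Between genotypes *Fabp6* differed by 6.95 ± 1.72 without overlap (log2, adjusted p = 0.273, edgeR) and *Slc10a2* by 3.04 ± 0.98 (adjusted p = 0.288, edgeR). *Fabp6* had 127, 82.8 and 0.980 CPM in *ApcMin* replicates 1, 2 and 3, against 0.477 to 0.618 CPM in the *Apc1322T* libraries. *Slc10a2* was also low in *ApcMin* replicate 3 (4.46 CPM), within the range of the *Apc1322T* libraries (3.96 to 8.54 CPM). The position of the adenomas along the intestine is not given in the labels, and its part in the *Ang4* values was not tested. *Ang4* shared 4.7% of its 50-base stretches with other genes, mainly with *Ang5*, which had at most 2 counts in a library. *Ang2* had at most 3 counts, and *Ang* was lower in all 3 *ApcMin* libraries (9.59 to 11.1 CPM) than in the *Apc1322T* libraries (11.996 to 15.4 CPM), at a log2 difference of -0.43 ± 0.14 (unadjusted p = 0.0227, adjusted p = 0.288, edgeR).

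*Itln1*, an intelectin that binds sugars of bacterial surfaces and is made by Paneth and goblet cells, lies on the minus strand of chromosome 1 (ENSMUSG00000038209, chr1:171518122-171535294). It had 281, 325 and 510 CPM in *Apc1322T* and 408, 413 and 196 CPM in *ApcMin* adenomas, with overlap. *Itln1* differed by -0.13 ± 0.35 (log2, adjusted p = 0.869, edgeR). As with *Ang4*, the lowest library was *ApcMin* replicate 3, and without it the difference was 0.14. The ratio of *Itln1* to *Lyz1* counts was between 0.352 and 0.489 in 5 libraries and 0.114 in *ApcMin* replicate 3. The nearest genes to *Itln1* were *Cited2* (0.11), *Gm48216* (0.12) and *Akap6* (0.13). *Itln2*, its close relative, was not analysed here.

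*Pla2g2a* encodes the secreted group IIA phospholipase of Paneth cells, which attacks bacterial membranes, and is known as a modifier of polyp number in *ApcMin* mice. It lies on the plus strand of chromosome 4 (ENSMUSG00000058908, chr4:138831857-138835186), where GENCODE M21 classes it as a polymorphic pseudogene. The gene is known to be disrupted in C57BL/6 mice. Its RNA was abundant in every library nonetheless, with 491, 302 and 287 CPM in *Apc1322T* and 275, 295 and 445 CPM in *ApcMin* adenomas. Gene counts do not tell which transcript or reading frame they come from. No 50-base stretch of its transcript was shared with another gene. The log2 difference of -0.090 ± 0.28 (adjusted p = 0.891, edgeR) was within its error. It turned to 0.039 without *ApcMin* replicate 1 and 0.20 without *Apc1322T* replicate 1. *Pla2g2a* and *Nupr1* varied least of the 10 genes between the highest and lowest library, by 1.789-fold and 1.795-fold. Its nearest genes were *2310039H08Rik* (0.080), *Bmp7* (0.081) and *Gm6091* (0.082). Of related phospholipase genes, *Pla2g10* differed by -0.51 ± 0.15 (unadjusted p = 0.0117, adjusted p = 0.279, edgeR), *Pla2g2f* by -0.29 ± 0.20 and *Pla2g5* by 0.71 ± 0.56. *Pla2g10* was lower in all 3 *ApcMin* libraries (11.2 to 13.6 CPM) than in the *Apc1322T* libraries (15.6 to 20.0 CPM).

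*Nupr1* (ENSMUSG00000030717, minus strand, chr7:126623249-126630861) had 38.7, 36.1 and 36.9 CPM in *Apc1322T* adenomas, the closest agreement between replicates of any of the 10 genes. In *ApcMin* adenomas it had 46.3, 26.8 and 25.8 CPM, with replicate 1 above and replicates 2 and 3 below the *Apc1322T* libraries. *Nupr1* differed by -0.18 ± 0.23 (log2, adjusted p = 0.723, edgeR). Without *ApcMin* replicate 1, the library with pancreatic and more myeloid transcripts, it differed by -0.50 ± 0.097 (unadjusted p = 0.00227, adjusted p = 0.298, edgeR). The part of these cells in the *Nupr1* value was not tested. Its nearest genes were *Wtip* (0.072), *B3gnt5* (0.075) and *Noxo1* (0.078).

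Other antimicrobial and barrier genes of the gut were listed alongside. Of 19 genes, 17 were tested, with 4 above 0 and 13 below and a median log2 fold change of -0.49. At an unadjusted p under 0.05, 5 were lower and 2 higher in *ApcMin* adenomas, beside 7.6% and 7.49% of all tested genes, and 3 of the 5 are near-identical copies of *Sprr2a*. *Lypd8*, which encodes a protein that binds flagella and keeps motile bacteria off the epithelium, had 2132, 2555 and 2134 CPM in *Apc1322T* and 1509, 1321 and 1423 CPM in *ApcMin* adenomas without overlap (-0.68 ± 0.13, unadjusted p = 0.00114, adjusted p = 0.257, edgeR). The small proline-rich genes *Sprr2a1*, *Sprr2a2* and *Sprr2a3* also did not overlap, with log2 fold changes between -0.75 and -0.63. The counts of these copies depend on how reads were divided between them. The goblet cell lectin gene *Zg16* was lower at -0.69 ± 0.29, and *Mptx2* (0.96) and *Wfdc2* (0.84) were the 2 higher genes. *Duox2* and *Duoxa2*, which form the epithelial hydrogen peroxide generator, were lowest in *ApcMin* replicate 3, where *Ang4*, *Itln1* and *Reg4* were lowest too. *Duox2* had 86.3 CPM there and 182 to 525 CPM elsewhere. *Pigr*, the receptor that carries IgA into the lumen, was lowest in *ApcMin* replicate 2, with 663 CPM against 1203 to 2033, the library in which *Reg3b* and *Reg3g* were low.

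Genes of the interleukin-22 and STAT3 pathway that induces *Reg3b* and *Reg3g* were described in the same way. *Il22* itself had at most 3 counts in a library, too few to compare. Its receptor chains *Il22ra1* (21.3 to 37.5 CPM) and *Il10rb* (64.3 to 116 CPM) were present in all libraries, and neither was lowest in *ApcMin* replicate 2. *Stat3* (175 CPM) and its feedback target *Socs3* (60.1 CPM) were lowest in that library, and varied 1.35-fold and 1.503-fold over the 6 libraries. Of the 17 tested genes of the list 8 were lowest in *ApcMin* replicate 2, as were 14.4% of all tested genes. Of the 21 genes listed these 17 had log2 fold changes above 0 in 10 cases and below 0 in 7 (median 0.15). At an unadjusted p under 0.05, *Il23a* (log2 fold change 1.33 ± 0.28) and *Il6ra* (0.65 ± 0.24) were higher and *Bcl3* (-0.32 ± 0.11) was lower in *ApcMin* adenomas. The shares over all tested genes were 7.49% higher and 7.6% lower (edgeR). *Jak1* was lower in all 3 *ApcMin* libraries (-0.16 ± 0.083). *Il6*, *Il11*, *Osm* and *Saa3*, which encode cytokines that signal through STAT3 and a serum amyloid, were highest in *ApcMin* replicate 1, the library with most neutrophil transcripts, and lowest in *ApcMin* replicate 2, the library in which *Reg3b* and *Reg3g* were lowest too. *Il11* had 167 CPM in the former, 27.7 CPM in the latter and 29.967 to 51.3 CPM in the other 4. *Saa3* had 285 CPM in the former, 26.2 CPM in the latter and 37.6 to 64.3 CPM in the other 4. For *Il6* and *Osm* the low values were close to the next lowest library (1.69 against 1.95 CPM and 0.786 against 0.980 CPM). In *ApcMin* replicate 1, where these genes were highest, *Reg3b* (1496 CPM) and *Reg3g* (859 CPM) were within the range of the other libraries. The part of this pathway in the *Reg3b* and *Reg3g* values was not tested. Of 11 genes for sensing bacteria and for related cytokines 9 were tested, with 5 above 0 and 4 below (median 0.36). *Tlr4* was higher (0.83 ± 0.22) and *Il18* lower (-0.79 ± 0.30) at an unadjusted p under 0.05, and *Il17ra* was lower in all 3 *ApcMin* libraries (-0.23 ± 0.11). No gene of these lists had an adjusted p under 0.01 (edgeR).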

How the data were processed

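Single-end stranded reads of 50 bases were quantified by the authors with Salmon (GRCm38.p6 per the processing notes). The deposited values are estimated counts of each gene without normalization. The annotation release is not given in the sources used here. Of the deposited values, 31.1% were not whole numbers (tolerance 0.001), and counts were rounded. Identifiers were matched to GENCODE M21 (GRCm38) for 34582 of 34866 genes. Genes were kept with filterByExpr (minimum count 10, minimum total count 15). They were tested in edgeR 4.0.16 by its quasi-likelihood F test (robust option) with TMM normalization. Benjamini-Hochberg adjustment was over all 16536 tested genes, at a threshold of 0.01. The study set this threshold for DESeq2, with which it reported significant changes between adenomas of these genotypes. Standard errors are the size of the log2 fold change over the square root of F. DESeq2 1.42.0 and limma 3.58.1 (voom), in R 4.3.3, were alternatives, as were other normalizations, filters on low counts, a threshold of 0.05, a prior count of 0.5, *Lyz1* and *Lyz2* summed, the replicate number as a block and each library left out. No list was tested as a set. The members and lists were chosen with earlier results of these data known. Named were all members, their family, the listed genes at an unadjusted p under 0.05 or without overlap, further examples of each list, and the 3 genes nearest to each member. *Duox2*, *Duoxa2*, *Pigr*, *Il11*, *Il6*, *Osm*, *Saa3*, *Il22*, *Il22ra1*, *Il10rb*, *Stat3*, *Socs3* and the marker genes were picked from the lists after their values were seen. Transcripts were compared in stretches of 50 bases. Promoters were taken from RefSeq (GRCm38.p6), which held 9 of the 10 members. Procedures were tested on simulated data.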

Additional observations from a re-analysis of the deposited data

How the results depend on the processing

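With edgeR 0 genes passed an adjusted p of 0.01 and 2495 an unadjusted p of 0.05. The former became 194 of 17503 genes with DESeq2's Wald test, 1 without a filter on low counts, and between 0 and 1 with each library left out in turn. At an adjusted p under 0.05 it was 1 with edgeR. The count of 0 among the 10 antimicrobial genes held in each of these fits. The direction of *Reg3a*, *Reg3b*, *Reg3g*, *Reg4*, *Nupr1* and *Lyz1* was kept under every alternative run. With limma-voom *Ang4* turned to -0.081. With each library left out, log2 fold changes ranged from -0.46 to 1.62 for *Ang4*, -0.30 to 0.16 for *Itln1*, -0.34 to 0.20 for *Pla2g2a* and -0.88 to 0.20 for *Reg1*. *Lyz1* was above an unadjusted p of 0.05 with DESeq2's size factors (0.0519), with a stricter filter (0.0509) and in 4 of the 6 fits that left out a library. The replicate numbers were treated only as names of libraries. Deviations of same-numbered libraries correlated at -0.014, 0.16 and -0.29 for replicates 1, 2 and 3, and not every library correlated best with its own number. Centring within each genotype ties these correlations to one another, so they cannot show that the numbers carry no pairing. With the replicate block 0 genes were called, and *Lyz1* had 0.61 (adjusted p = 0.348). The prior count moved no mean log2 CPM by more than its SD over the libraries. Depth did not limit the members, which had at least 103 counts in every library, and the spread between libraries sets the precision.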
